A study of Drosophila melanogaster with 22 samples.

Results

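Antennal lobe neuroblasts were set against a pool of neuroblasts of the larval Drosophila brain, with 3 libraries in each group and 15339 annotated genes, out of 22 libraries in 8 groups. The libraries were chosen by their labels, and every gene was read in them. All 6 came from larvae at 50 h after hatching, hatched within 2 h of each other and raised at 25 °C. For a sort, 30 brains were digested with enzymes, and a robotic sorter collected GFP-labelled cells 10 at a time, so that each library held RNA of many animals. The antennal lobe libraries were made from 106, 115 and 121 cells, and the pooled libraries from 101, 118 and 105 cells. Fly genotypes, the driver of the GFP label, which antennal lobe lineages were labelled and what share of the pool they form are not stated in the labels. Mushroom body and type II neuroblasts of the same age, 3 standard libraries each, entered the same fit and served as a second reference. Nothing states whether the replicates are separate preparations, so p-values measure the spread between libraries, which may be technical.

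Neuroblasts are the stem cells of the fly brain. Each divides repeatedly and asymmetrically, renewing itself and giving off a smaller daughter, and each makes its own fixed family of neurons, a lineage, under the spatial transcription factors it inherited from its place in the embryo and the temporal factors that change as it ages. The antennal lobe neuroblasts make the projection neurons and local interneurons of the first olfactory centre, mushroom body neuroblasts make the Kenyon cells of the memory centre, and type II neuroblasts make intermediate progenitors that divide further.

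The libraries of both groups held similar numbers of reads. Gene counts came to 7771032 to 8947555 per antennal lobe library, over 10677 to 11002 detected genes, against 7775371 to 8464064 counts and 10480 to 10725 genes in the pooled libraries. RNA per cell, read against the ERCC spike-in RNA added to each library and set to 1.00 for the pooled mean, was 0.990 ± 0.0905 in antennal lobe neuroblasts and 1.00 ± 0.10 in the pool (SD, n = 3 each). The difference was -0.01 on the log2 scale and smaller than the spread (exact permutation test over 20 splits, two-sided, p = 1, where 0.1 is the smallest possible). The noncoding gene CR43283 took 19.6 ± 1.03% of gene counts in antennal lobe libraries and 14.8 ± 1.96% in pooled libraries. Reads outside annotated genes made up 10.3 to 11.6% in antennal lobe libraries against 7.92 to 9.68% in the pool. Replicates correlated on log CPM at 0.939 to 0.946 within the antennal lobe group and 0.953 to 0.961 within the pool, and at 0.879 to 0.931 across the groups.

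Of 9249 genes tested, 1574 (17.0%) differed between antennal lobe and pooled neuroblasts at an adjusted p below 0.05, 925 of them higher (10.0%) and 649 lower (7.02%). Levels are given as CPM, counts per library size with TMM scaling, and changes as log2 of antennal lobe over pooled. The test was edgeR's quasi-likelihood test with Benjamini-Hochberg adjustment over all genes tested, and each error of a log2 change is a standard error from that fit. A rise of more than 1 log2 unit was found for 547 genes and a fall of more than 1 for 368, while the median over all tested genes was -0.004. The libraries of the groups did not overlap for 867 of the higher and 629 of the lower genes, against 34.1% of all tested genes. Levels scaled to the spike-ins instead shifted the median gene by -0.28 and left 218 higher and 243 lower genes, 47.3% of them higher in place of 58.8%, and TPM values gave 618 higher and 713 lower, 46.4% higher. Without pooled library 2 or 3 the higher genes numbered 557 and 608 and the lower ones 401 and 415, and without antennal lobe library 1 or 2 the lower genes numbered 376 each time. The spike-in fit shares its spread over 12 libraries. Among them, type II library 1 had RNA per cell of 3.23 times the pooled mean, against 1.31 and 1.20 in type II libraries 2 and 3. With that scaling RpL15 lost its call (adjusted p = 0.224) although its change went from -0.60 to -0.88. The part of that library in the calls lost with spike-in scaling, here and below, was not tested.

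**Figure D1:**
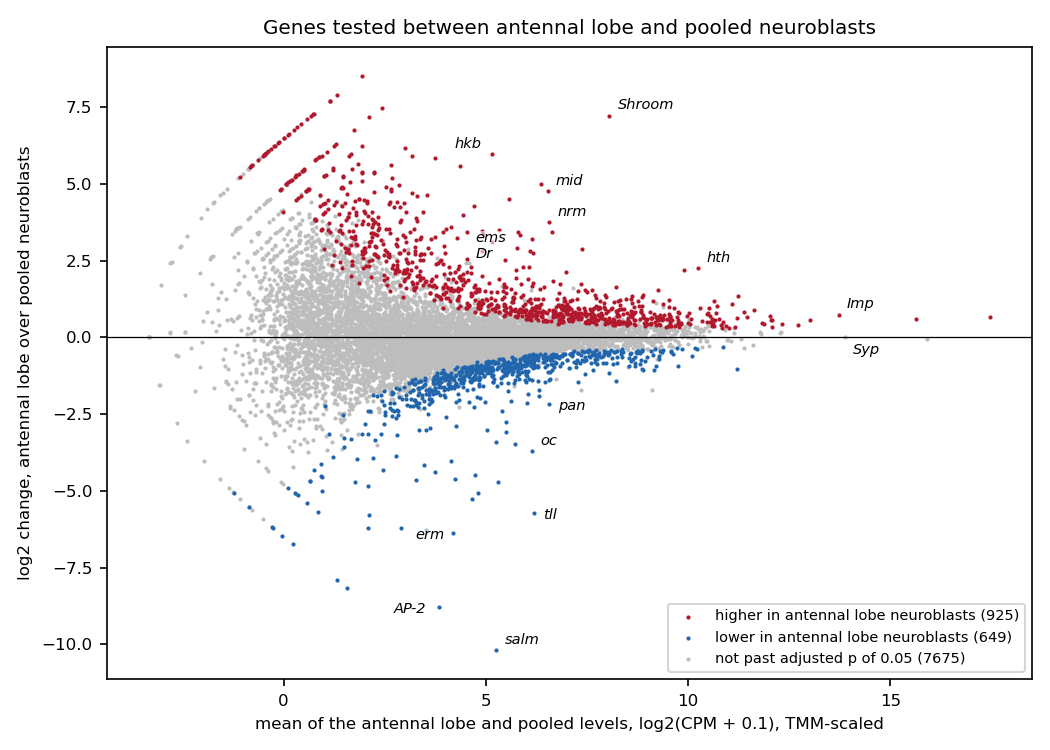
Log2 change of each tested gene, antennal lobe over pooled neuroblasts (y), against the mean of both groups' levels as log2 of CPM plus 0.1 (x), with 925 genes higher (red) and 649 lower (blue) at an adjusted p below 0.05. Several transcription factors lie far from 0 in both directions, mid and hkb above and salm, AP-2, erm and tll below, while abundant genes such as Syp lie near 0.

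Genes of patterning transcription factors were among the largest rises in the antennal lobe group. The homeodomain gene ems, a head gap gene known for its role in antennal lobe lineages (FBgn0000576, chromosome 3R, 9727581 to 9730346 in dm3), had 77.4, 104.5 and 105 CPM in antennal lobe libraries, against 20.9, 12.8 and 4.61 CPM in pooled libraries. Its log2 change was 2.91 ± 0.47 (adjusted p = 0.000477), and the lowest antennal lobe library was well above the highest pooled one. The T-box gene mid (FBgn0261963, chromosome 2L, 5461641 to 5466829) had 164, 208 and 160 CPM against 12.2, 4.19 and 3.15 CPM in the pool, a log2 change of 4.77 ± 0.45 (adjusted p = 3.14e-06). The zinc finger gene hkb (FBgn0261434, chromosome 3R, 170737 to 172364) had 64.3, 63.1 and 83.3 CPM against 1.31, 0.441 and 1.58 CPM in the pool, a log2 change of 5.97 ± 0.61 (adjusted p = 8.49e-07). All 3 genes were thus far above the pool in every antennal lobe library. They were also near 0 in the other named lineages: ems averaged 0.582 CPM in mushroom body neuroblasts and had no count in type II neuroblasts, mid averaged 0.273 and 0.145 CPM there, and hkb 1.04 and 0.558 CPM.

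The fourth gene read as a lineage marker, tll, went the other way. This orphan nuclear receptor gene of the head gap class (FBgn0003720, chromosome 3R, 26678037 to 26680095) had 2.88, 2.42 and 2.88 CPM in antennal lobe libraries, against 131, 140 and 160 CPM in pooled libraries. The log2 change of -5.71 ± 0.22 (adjusted p = 1.3e-15) came from tight groups on both sides. Mushroom body neuroblasts averaged 295 CPM and type II neuroblasts 327 CPM of tll, so the antennal lobe group was the lowest of the 4.

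Further regulators rose with ems, mid and hkb. Dr, a homeobox gene of the dorsal neural column also known as msh, had 55.9, 87.8 and 81.5 CPM in antennal lobe libraries against 8.59, 13.8 and 17.1 CPM in the pool (log2 change 2.51 ± 0.36, adjusted p = 4.44e-05). The homeodomain gene hth, a cofactor of Hox proteins, reached 1972, 1764 and 2284 CPM against 447, 388 and 413 CPM (log2 change 2.27 ± 0.23, adjusted p = 1.82e-05). Neither gene's groups overlapped. Awh, a LIM homeodomain gene, was at 19.9, 25.8 and 20.6 CPM in antennal lobe libraries and at 2.27, 0.331 and 0 CPM in pooled ones (log2 change 4.65 ± 0.91). Rises that rested on particular libraries were those of the Iroquois gene caup (3.19 ± 0.75, adjusted p = 0.0774 without antennal lobe library 3) and of H15, the neighbour and paralog of mid (4.39 ± 1.32, adjusted p = 0.0502 to 0.0946 without antennal lobe library 1 or 2 or any pooled library). Of 385 tested genes annotated as transcription factors, 66 rose (17.1%) and 50 fell (13%), against 10.0% and 7.02% of all tested genes. Without pooled library 2, 43 of them rose, while all higher genes numbered 557 of 9554 tested in place of 925 of 9249. Reads shared between paralogs such as mid and H15 or salm and salr were not separated here.

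**Figure D2:**
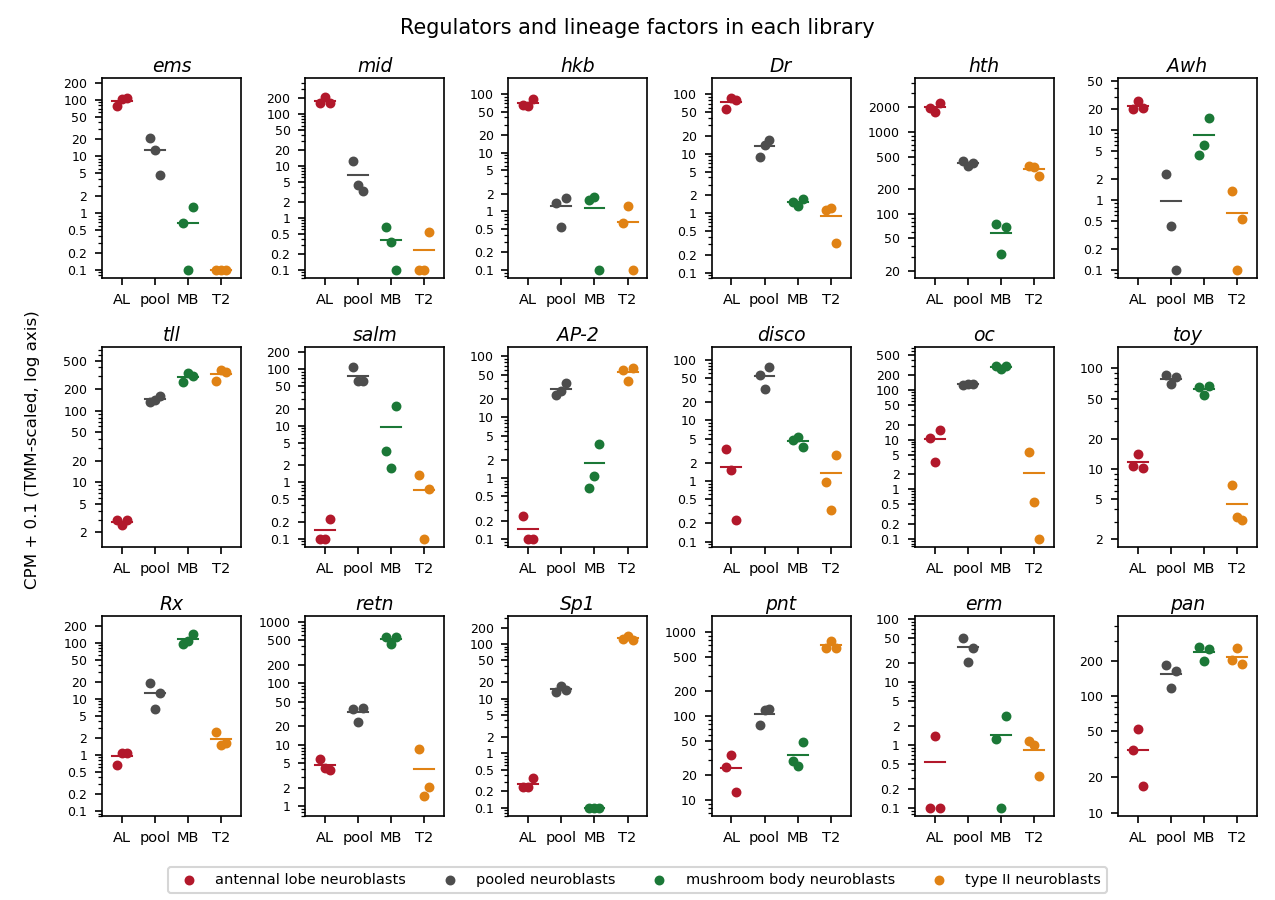
Levels of 18 transcription factor genes as CPM plus 0.1 on log axes, one point per library and a bar at the mean, in antennal lobe (AL), pooled, mushroom body (MB) and type II (T2) neuroblasts. The top row rose in the antennal lobe group, while tll, salm, AP-2, disco and the genes of the bottom row were lower there than in the pool.

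Other transcription factor genes fell, several of them to almost no reads in the antennal lobe group. The spalt zinc finger gene salm had 0, 0 and 0.125 CPM in antennal lobe libraries, against 107, 60.7 and 61.1 CPM in pooled libraries. Only 1 read was counted over the antennal lobe group, and the pool was 1694-fold higher by summed counts, with a 95% interval of 304 to 66960 that covers counting error alone. AP-2, a gene of the AP-2 family, likewise had 0.137, 0 and 0 CPM against 22.8, 26.8 and 36.1 CPM, a ratio of 635 (114 to 25130), and type II neuroblasts averaged 54.4 CPM. The zinc finger paralogs disco and disco-r fell by 5.07 ± 0.70 and 4.49 ± 0.80 on the log2 scale, and salr fell by 6.26 ± 1.01. For disco the libraries held 3.29, 1.43 and 0.125 CPM in the antennal lobe group against 55.0, 32.6 and 75.0 CPM in the pool, without overlap. oc, the head gap gene orthodenticle, had 10.8, 3.42 and 15.9 CPM in antennal lobe libraries against 125, 134 and 134 CPM in pooled ones (log2 change -3.69 ± 0.66, adjusted p = 0.00642). The T-box gene bi, known from optic lobe patterning, was at 16.9, 1.85 and 7.38 CPM against 115, 67.1 and 106 CPM (-3.46 ± 0.74). vnd, the homeobox gene of the ventral column, had 2 reads in all antennal lobe libraries and was 91.2-fold higher in the pool (24.9 to 758 by counting error). scro, another homeobox gene, had no read in the antennal lobe group and was at least 42.0-fold lower there, with 3 counts over the group as the floor. In bulk samples such as these, more cells of a type in the pool and more RNA of a gene per cell there cannot be told apart.

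Most factors of the mushroom body and type II lineages fell. Of 7 mushroom body lineage factors tested, 5 fell (71.4%, against 7.02% of all tested genes) and none rose, with a median log2 change of -2.77. The 5 include tll, already given above as a lineage marker and not particular to the mushroom body, since its mean was high in type II neuroblasts too. The Pax6 gene toy had 10.7, 14 and 10.1 CPM in antennal lobe libraries against 85.6, 69.3 and 82.2 CPM in the pool (-2.77 ± 0.28, adjusted p = 4.31e-07). The ARID gene retn was at 5.76, 4.13 and 3.75 CPM against 38.1, 23.6 and 40.0 CPM, and the homeobox gene Rx at 0.548, 0.998 and 1.00 CPM against 18.9, 6.40 and 12.6 CPM. ap, a LIM homeodomain gene, fell less (-1.72 ± 0.48), and its adjusted p was 0.103 without antennal lobe library 1 and 0.0609 and 0.0841 without pooled library 1 and 3. The remaining pair did not pass: ey, the other Pax6 gene, changed by 0.69 ± 0.41 (adjusted p = 0.285) and dac by -0.78 ± 0.46 (adjusted p = 0.266).

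Of 7 type II lineage factors tested, 5 fell (71.4%, against 7.02% of all tested genes) and none rose, with a median of -2.14, and 4 fell with any single antennal lobe or pooled library left out. Sp1, which with btd specifies type II neuroblasts, was at 0.137, 0.142 and 0.250 CPM in antennal lobe libraries against 13.1, 16.7 and 14.2 CPM in the pool (-6.20 ± 0.43, adjusted p = 1.85e-09), and averaged 127 CPM in type II neuroblasts. The ETS gene pnt had 24.8, 34.4 and 12.4 CPM against 77.1, 117 and 120 CPM (-2.14 ± 0.34), with 691 CPM in type II neuroblasts. erm, a zinc finger gene of intermediate progenitors, had reads in only 1 antennal lobe library, 1.28 CPM, against 51.0, 21.1 and 34.9 CPM in the pool (-6.37 ± 1.06). Type II neuroblasts themselves averaged 0.729 CPM of erm. Summed, the intermediate progenitor markers erm, opa and ham came to 0.653 to 5.62 CPM in type II and 7.70 to 16.8 CPM in antennal lobe libraries. Pooled libraries held 59.8 to 104 CPM of them and mushroom body libraries 214 to 275 CPM. The list thus holds genes that were low in type II neuroblasts. btd (-2.35 ± 0.79, adjusted p = 0.068) and ham (-0.89 ± 1.26, adjusted p = 0.688) did not pass. The pair-rule gene opa fell by 2.11 ± 0.62 on the log2 scale (adjusted p = 0.0476), a call lost with any single antennal lobe or pooled library left out (0.0577 to 0.15) and with DESeq2 (0.179). The GATA factor gene grn fell by 1.63 ± 0.41, with an adjusted p of 0.0538 without antennal lobe library 1.

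A stricter comparison asked which genes set antennal lobe neuroblasts apart from mushroom body and from type II neuroblasts at once, and it shares the antennal lobe libraries with the comparison above. Against mushroom body neuroblasts 551 genes were higher (5.96%) and 544 lower (5.88%), and against type II neuroblasts 562 were higher (6.08%) and 494 lower (5.34%). Against both, 188 genes (2.03%) passed, of which 84 were higher (0.908%) and 104 lower (1.12%), taking the larger p of each gene. The higher set held ems, mid, hkb, Dr, hth and caup, with adjusted p of 3.24e-06, 2.59e-07, 3.24e-06, 6.4e-09, 1.1e-05 and 0.000176 against both lineages. It also held 2 genes for which no role is given here: CG42324 had 75.5, 103 and 92.9 CPM in antennal lobe libraries against means of 7.32 CPM in mushroom body and 2.52 CPM in type II neuroblasts, and CG31619 had 67.4, 79.7 and 73.6 CPM against 9.15 and 7.74 CPM. The lower set held tll (adjusted p = 4.58e-17), the glucose and trehalose transporter gene Tret1-1 (6.77e-12), the Wnt effector gene pan (0.000461), AP-2 (0.00353) and vnd (0.0149). Without antennal lobe library 1 the sets held 49 higher and 47 lower genes. The higher set held 140 genes without pooled library 2, and the lower set 62 without antennal lobe library 2, 69 without mushroom body library 2 and 62 without type II library 1.

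Genes of the neuroblast state itself had reads in both groups, and those that passed were higher in the antennal lobe group. Of 13 neuroblast identity factors tested, 6 rose (46%) and none fell, against 10.0% and 7.02% of all tested genes, with a median of 0.50. None passed with spike-in scaling, where the median was 0.22. The Sox gene D had 220, 368 and 286 CPM in antennal lobe libraries against 106, 98.0 and 97.6 CPM in the pool (1.54 ± 0.20, adjusted p = 1.69e-05), with 6.87 CPM in mushroom body and 83.5 CPM in type II neuroblasts. klu, a zinc finger gene needed for neuroblast self-renewal, was at 1189, 1037 and 954 CPM against 677, 408 and 563 CPM (0.95 ± 0.17). SoxN and grh, a Sox and a Grainyhead gene kept on in neuroblasts, rose by 0.88 ± 0.16 and 0.68 ± 0.15. The Hes-type repressor gene dpn did not pass at 0.35 ± 0.23 (adjusted p = 0.317), nor did the proneural gene ase at 0.50 ± 0.19 (adjusted p = 0.0683), which separates type II from other neuroblasts.

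Genes of asymmetric division, which send fate determinants into the daughter cell, had a median near 0. Of 23 tested, 7 rose (30.4%) and 1 fell (4.35%), against 10.0% and 7.02% of all tested genes. Their median was 0.12, and it turned to -0.16 with spike-in scaling. brat, the growth inhibitor handed to the daughter cell, had 1706, 1629 and 1878 CPM in antennal lobe libraries against 1380, 1051 and 1216 CPM in the pool (0.52 ± 0.12). numb, a Notch inhibitor, and stau, which carries RNA into the daughter, rose by 0.65 ± 0.14 and 0.62 ± 0.13. The tumour suppressor gene l(2)gl fell by 0.55 ± 0.13 on the log2 scale, with 296, 271 and 351 CPM against 458, 455 and 427 CPM, and its adjusted p was 0.0513 without antennal lobe library 2. mira, the adaptor that moves determinants into the daughter, changed by 0.04 ± 0.14 (adjusted p = 0.887). With spike-in scaling no gene of the list passed, and brat, numb, stau and l(2)gl had adjusted p of 0.804, 0.677, 0.706 and 0.255. With the trend on gene span removed, as described further on, 3 genes of the list were higher and 6 lower, and brat and numb did not pass (log2 changes of 0.10 and 0.26, adjusted p = 0.555 and 0.142).

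Temporal factors differed gene by gene. Of 10 tested, 4 rose (40%) and 1 fell (10%), against 10.0% and 7.02% of all tested genes. Imp, svp, lin-28 and Eip93F, whose levels are given below with the ecdysone genes, were higher, and cas was lower. Imp, an RNA-binding protein gene of young neuroblasts, had 20530, 15350 and 14820 CPM in antennal lobe libraries against 11150, 9027 and 9996 CPM in the pool (0.75 ± 0.13, adjusted p = 0.000293). Its counterpart of older neuroblasts, Syp, changed by 0.01 ± 0.11 (adjusted p = 0.97). svp, the nuclear receptor gene that triggers a switch to later factors, was at 368, 307 and 234 CPM against 167, 79.5 and 97.8 CPM (1.40 ± 0.26), and cas, a factor of young larval neuroblasts, at 8.22, 21.5 and 11.0 CPM against 68.8, 48.0 and 96.0 CPM (-2.39 ± 0.46). Neither overlapped. chinmo, a target of Imp and Syp, did not pass (0.43 ± 0.20, adjusted p = 0.148), and the rise of lin-28 (1.09 ± 0.30) was lost without antennal lobe library 1 or 2 or pooled library 2, at adjusted p of 0.0725, 0.0822 and 0.0712. With spike-in scaling 1 gene of the list passed as higher, with Imp at 0.48 (adjusted p = 0.583) and svp at an adjusted p of 0.0926.

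Genes of the response to ecdysone, the steroid hormone that times late neuroblast switches, were higher where they passed. Of 13 tested, 6 rose (46%) and none fell, against 10.0% and 7.02% of all tested genes, with a median of 0.83. The nuclear receptor gene Eip75B had 400, 460 and 414 CPM in antennal lobe libraries against 237, 117 and 208 CPM in the pool (1.18 ± 0.20, adjusted p = 0.000457), and it was also higher than in both other lineages (adjusted p = 0.00213). Hr46 was at 117, 145 and 68.8 CPM against 27.4, 21.0 and 18.8 CPM (2.30 ± 0.32), with a mean of 103 CPM in mushroom body neuroblasts. Eip93F, which acts late in neuroblast life, is counted in the temporal list above and not in this list. Eip93F had 139, 168 and 242 CPM against 32.9, 4.97 and 12.5 CPM (3.45 ± 0.72, adjusted p = 0.0131), and its adjusted p was 0.0572 without pooled library 3. The receptor gene EcR rose by 0.88 ± 0.27, a call lost without any single antennal lobe library or without pooled library 2 or 3 (adjusted p = 0.0563 to 0.131), and br, a target gene, did not pass (0.32 ± 0.17, adjusted p = 0.219). Spike-in scaling left 1 of the 6 calls, and removal of the gene span trend described further on left 2.

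**Figure D3:**
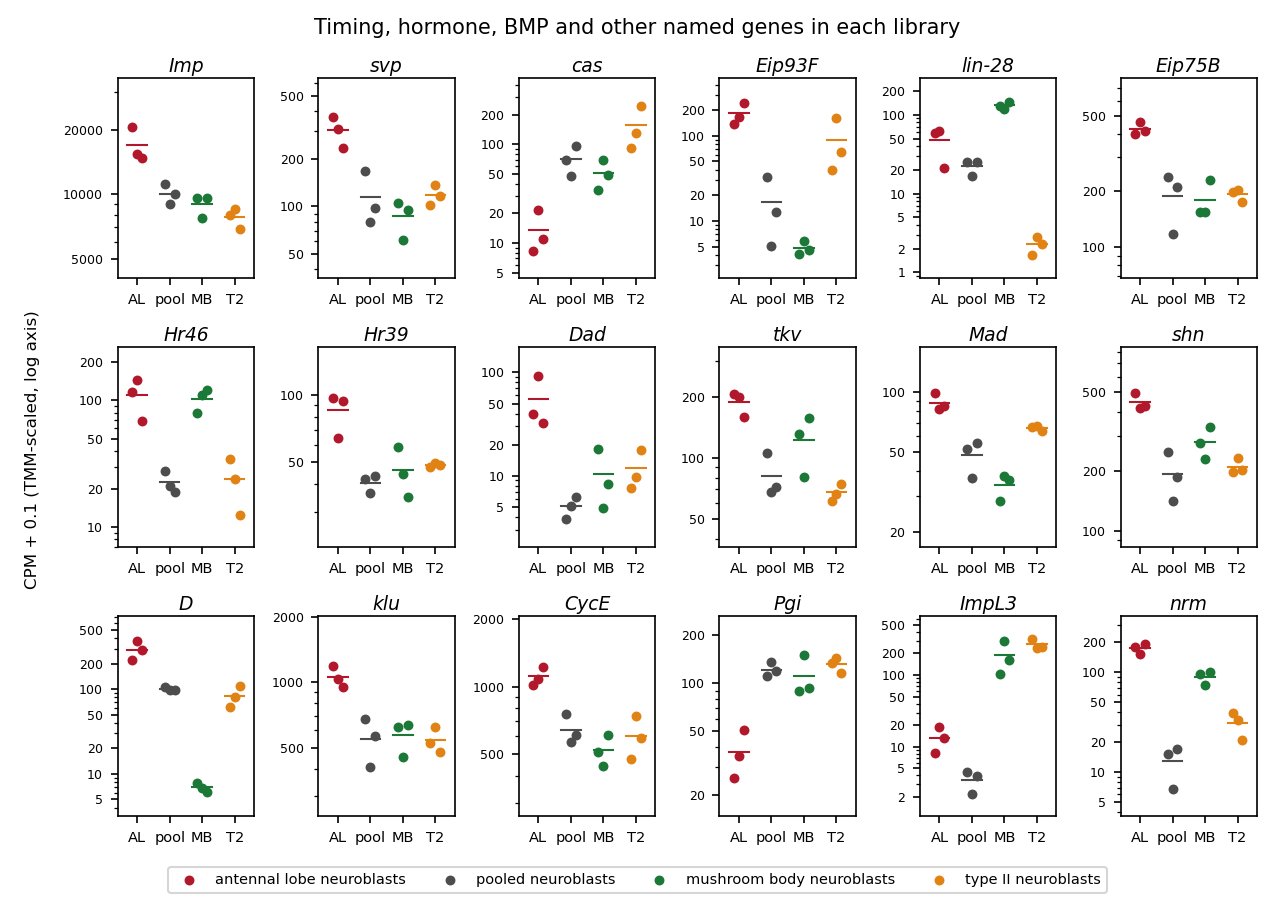
Levels of 18 temporal, hormone, BMP pathway and other genes as CPM plus 0.1 on log axes, one point per library and a bar at the mean, in antennal lobe (AL), pooled, mushroom body (MB) and type II (T2) neuroblasts. Dad, D, klu and CycE were higher in the antennal lobe group than in the other 3, Pgi was lower, and cas was lowest in the antennal lobe group.

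Of 17 Activin and BMP pathway genes tested, 8 rose (47.1%) and none fell, against 10.0% and 7.02% of all tested genes, with a median of 0.74. Of the 8, 7 lay in the longest class by gene span, described further on, where 21.7% of all tested genes were higher. The pathway carries signals of secreted ligands through receptor kinases to Smad proteins, and its inhibitory Smad, encoded by the target gene Dad, had 39.6, 93.2 and 32.0 CPM in antennal lobe libraries against 3.70, 4.97 and 6.18 CPM in the pool (3.47 ± 0.50, adjusted p = 8.32e-05). Among receptors, tkv was at 207, 199 and 160 CPM against 106, 68.0 and 72 CPM (1.20 ± 0.21). Of the nuclear effectors, the Smad gene Mad rose by 0.88 ± 0.21 and the zinc finger gene shn by 1.21 ± 0.17, while the repressor gene brk rose by 0.80 ± 0.23 (adjusted p = 0.0567 to 0.107 without antennal lobe library 1 or pooled library 2 or 3). The ligand gene Actbeta rose by 1.57 ± 0.51, with 33.7, 41.2 and 18.1 CPM against 19.2, 3.20 and 8.85 CPM, groups that overlapped (adjusted p = 0.0968 to 0.129 without antennal lobe library 1 or 2 or pooled library 2 or 3). Without antennal lobe library 1 or pooled library 3 the higher members numbered 4, without pooled library 2 they numbered 5, and with spike-in scaling 1. With the gene span trend removed, Mad changed by 0.48 and did not pass (adjusted p = 0.11).

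Single members of other signalling pathways differed, where 10.0% of all tested genes were higher and 7.02% lower. Of 19 Wnt pathway genes 3 rose (15.8%) and 1 fell (5.26%), near those shares. Only 1 was higher without antennal lobe library 1 or 2 or pooled library 2 or 3. The Wnt receptor gene fz2 had 267, 269 and 216 CPM in antennal lobe libraries against 86.4, 59.8 and 77.2 CPM in the pool (1.75 ± 0.19, adjusted p = 8.88e-07), whereas pan, which encodes the TCF factor of the same pathway, fell to 34.7, 52.5 and 16.9 CPM against 186, 117 and 164 CPM (-2.17 ± 0.32). In the Hedgehog pathway the receptor and target gene ptc rose by 1.08 ± 0.23, one of 3 higher among 10. The ligand gene hh and the effector gene ci were both lost without pooled library 2 (adjusted p = 0.0874 and 0.149) and without pooled library 3 (0.0861 and 0.0542), and none of the 3 passed with spike-in scaling. Of 4 JAK STAT pathway genes tested 2 rose. The transcription factor gene Stat92E had 141, 180 and 173 CPM in antennal lobe libraries against 67.1, 50.9 and 63.8 CPM in the pool (1.44 ± 0.19, adjusted p = 2.22e-05), without overlap, and the inhibitor gene Socs36E rose by 0.88 ± 0.26 (adjusted p = 0.0542 to 0.107 without antennal lobe library 2 or 3 or pooled library 2). Neither passed with spike-in scaling. Of 18 Notch pathway genes 6 rose and 1 fell: the ligand gene Dl by 0.88 ± 0.16, the coactivator gene mam by 0.74 ± 0.17 and the protease gene kuz by 1.15 ± 0.24, with none passing under spike-in scaling and 1 after removal of the gene span trend. The gene that fell, pen-2 of the gamma-secretase complex, did not pass with any single antennal lobe library or pooled library 2 or 3 left out (adjusted p = 0.0525 to 0.236).

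Among genes of energy metabolism more fell than rose, where 7.02% of all tested genes were lower and 10.0% higher. The lower share was 66.7% for glycolysis, 54.2% for the respiratory chain and ATP synthase and 19.4% for mitochondrial ribosomal proteins. Of 12 glycolysis genes 8 fell and 1 rose (median -0.57), and 8, ImpL3 among them, were lower than in both mushroom body and type II neuroblasts. Pgi, which interconverts glucose and fructose phosphates, had 25.5, 35.1 and 51.1 CPM in antennal lobe libraries against 110, 136 and 119 CPM in the pool (-1.71 ± 0.23, adjusted p = 2.32e-05), and Pglym78, a phosphoglycerate mutase gene, 117, 114 and 108 CPM against 188, 201 and 191 CPM (-0.78 ± 0.14). The lactate dehydrogenase gene ImpL3 was the one that rose, at 8.09, 18.7 and 13 CPM against 4.30, 2.1 and 3.76 CPM (1.97 ± 0.46; adjusted p = 0.0533 without antennal lobe library 2 and 0.0801 without pooled library 2), yet mushroom body and type II neuroblasts averaged 188 and 268 CPM. Tret1-1 fell by 1.85 ± 0.19 on the log2 scale. Of 24 respiratory chain and ATP synthase genes 13 fell and 4 rose (median -0.68), the ATP synthase gene ATPsyn-gamma by -1.45 ± 0.23 and the complex I gene ND42 by -1.19 ± 0.24. Mitochondrial ribosomal protein genes had 14 of 72 lower and none higher, and 58 did not pass (median -0.74). Of the 72, 67 lay in the shortest class by gene span, described further on, where 10.0% of all tested genes were lower and 5.04% higher. With spike-in scaling 1 glycolysis, 4 respiratory chain and 6 mitochondrial ribosome genes stayed lower, at medians of -0.85, -0.97 and -1.03; the lower glycolysis genes numbered 5 without antennal lobe library 1 or 3 or pooled library 3, the lower mitochondrial ribosome genes 6 to 8 without antennal lobe library 1 or 2 or pooled library 2 or 3, and the lower respiratory chain genes 7 without antennal lobe library 2.

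Cell cycle and cytoplasmic ribosome genes also fell more often than they rose. Among 52 cell cycle genes 12 fell (23.1%) and 2 rose (3.85%), against 7.02% and 10.0% of all tested genes (median -0.29). ial, which encodes Aurora B kinase, had 13.2, 10.8 and 10.9 CPM in antennal lobe libraries against 33.5, 59.0 and 45.9 CPM in the pool (-1.99 ± 0.31, adjusted p = 0.000111), and Mcm2, a replication helicase gene, fell by 1.14 ± 0.20 on the log2 scale. CycE, the cyclin of S phase entry, instead rose to 1021, 1086 and 1225 CPM against 751, 566 and 606 CPM (0.79 ± 0.15). Lower members numbered 4, 6 and 7 without antennal lobe library 1, antennal lobe library 2 and pooled library 2, and 2 with spike-in scaling. Among 86 cytoplasmic ribosomal protein genes 30 fell (34.9%) and 9 rose (10.5%, near the 10.0% of all tested genes), with a median of -0.30. The shortest class by gene span, described further on, held 70 of them, with a median of -0.28 against -0.31 for the whole class. Of these 70, 23 fell and 9 rose, against 10.0% and 5.04% of that class. RpL39 was at 115, 124 and 151 CPM against 294, 246 and 265 CPM (-1.05 ± 0.16), while RpS3 was at 2691, 3134 and 2990 CPM against 1295, 1493 and 1337 CPM (1.10 ± 0.11). After removal of the gene span trend 20 ribosomal protein genes were higher and 11 lower, with a median of 0.02. With the trend left in, the lower ones numbered 13 and 15 without antennal lobe library 1 and 2, and the higher ones 5 without pooled library 3.

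**Figure D4:**
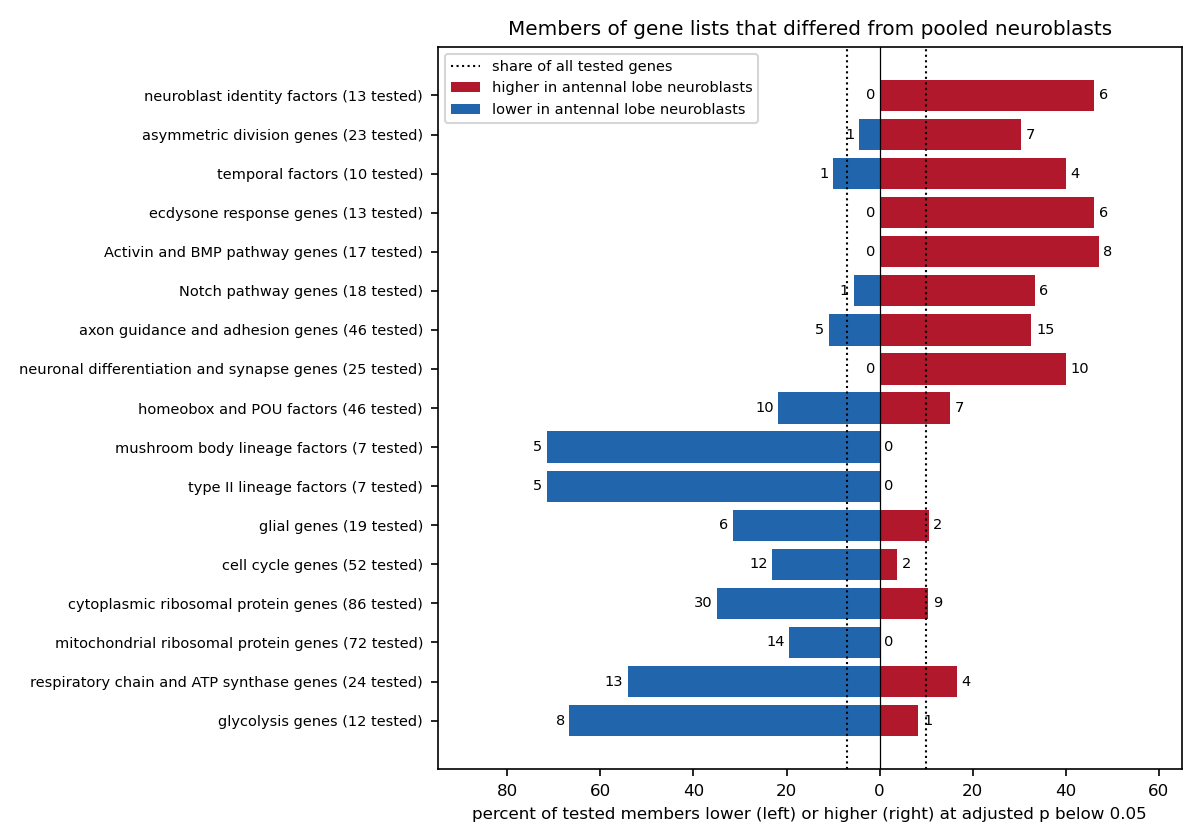
Percent of the tested members of 17 gene lists that were higher (right, red) or lower (left, blue) in antennal lobe than in pooled neuroblasts at an adjusted p below 0.05, with the number of genes at each bar. Dotted lines mark the shares over all tested genes, 10.0% higher and 7.02% lower; mushroom body, type II and glycolysis lists lie mostly to the left, and ecdysone, BMP and neuroblast identity lists to the right.

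Markers of other cell types moved with the groups. Summed over 8 neuronal markers, antennal lobe libraries held 365 to 413 CPM and pooled libraries 125 to 196 CPM. Mushroom body libraries held 327 to 394 CPM of the same markers and type II libraries 240 to 282 CPM, so the pool was the lowest group. Most of the sum was elav, at means of 300 CPM in antennal lobe and 155 CPM in pooled libraries, and 3 of the 8 markers passed. Of 25 neuronal differentiation and synapse genes 10 rose and none fell (median 1.09), among them the synaptic vesicle gene n-syb, at 14.5, 5.84 and 10.8 CPM against 1.31, 1.54 and 1.82 CPM (2.72 ± 0.64), and the calcium sensor gene Syt1, at 47.0, 76.3 and 24.9 CPM against 4.77, 0.441 and 2.30 CPM (4.30 ± 1.04; lost at adjusted p of 0.0562 to 0.0824 without antennal lobe library 1 or 2 or pooled library 2 or 3). The higher ones numbered 7 with any one of those 4 libraries left out, 5 with spike-in scaling and 3 or 4 with TPM values. The 10 were 40% of the list, against 10.0% of all tested genes. All 10 lay in the longest class by gene span, described further on, where 21.7% of all tested genes were higher. With the gene span trend removed, para, Cha and Shab of the 10 did not pass (adjusted p = 0.0748, 0.122 and 0.0762). Mushroom body neuroblasts averaged 10.6 and 55.3 CPM of n-syb and Syt1, and antennal lobe over mushroom body changes of -0.03 and -0.16 did not pass (adjusted p = 0.985 and 0.941). nrm, a cell adhesion gene, had 179, 152 and 193 CPM in antennal lobe libraries against 15.2, 6.73 and 16.9 CPM in the pool (3.76 ± 0.29, adjusted p = 9.84e-09). The 6 glial markers summed to 139 to 142 CPM in antennal lobe libraries and 223 to 257 CPM in the pool. Most of that sum was the glutamate transporter gene Eaat1, at means of 124 CPM and 207 CPM. The defining gene repo had 1 read over the antennal lobe group and averaged only 2.3 CPM in the pool (adjusted p = 0.039). Its call was lost with any single antennal lobe or pooled library left out (adjusted p = 0.0609 to 0.131). Of 19 glial genes tested 6 fell (31.6%, against 7.02% of all tested genes) and 2 rose (10.5%, near the 10.0% of all tested genes). Their median was 0.12, and -0.14 with spike-in scaling. bnb and Obp44a, genes with high levels in glia, fell by 4.71 ± 0.70 and 4.38 ± 0.67, whereas the septate junction gene Gli rose by 1.71 ± 0.50 (adjusted p = 0.0534 to 0.107 without antennal lobe library 2 or pooled library 2 or 3) and the sodium pump gene nrv2 by 0.45 ± 0.14. The higher glial genes numbered 0 with spike-in scaling or without pooled library 2, 1 without antennal lobe library 1 or 2 or pooled library 1, and 4 without antennal lobe library 3. The 4 blood cell markers summed to 11.3 to 21.9 CPM in antennal lobe libraries against 1.67 to 4.36 CPM in the pool. Mushroom body libraries held 14.2 to 27.8 CPM of them and type II libraries 0.458 to 5.62 CPM. Of the 4 markers only the GATA factor gene srp passed, at 18.2, 7.27 and 14.3 CPM in antennal lobe libraries against 0.119, 0 and 1.7 CPM in the pool, while the defining gene Hml averaged 0.616 CPM against 2.02 CPM (adjusted p = 0.412) and nimC1 had no reads in either group. Of 9 blood cell genes tested 4 rose (44.4%) and none fell, against 10.0% and 7.02% of all tested genes. The higher ones numbered 2 without antennal lobe library 2 and 1 without pooled library 2 or with spike-in scaling. Type II lineage markers summed to 15.6 to 34.9 CPM in antennal lobe libraries and 105 to 156 CPM in the pool, and 7 neuroblast markers summed to 3894 to 4288 CPM against 2340 to 3080 CPM. The part of other cells in the gene lists above was not tested.

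Change also followed the length of the gene on the chromosome, its span with introns. In the first of 4 equal classes of tested genes, the shortest, with a median span of 1042 bases, 5.04% were higher in antennal lobe neuroblasts and 10.0% lower, at a median log2 change of -0.31. In the longest class, with a median of 10918 bases, 21.7% were higher and 3.88% lower, at a median of 0.35. The median ran in the same direction from the shortest to the longest class for antennal lobe over mushroom body neuroblasts (-0.25 and 0.14) and over type II neuroblasts (-0.27 and 0.33). With the trend of level on span removed in each library, an alternative added after the data were seen, 772 genes were higher and 577 lower. Many ribosomal and mitochondrial genes are short and many neuronal, adhesion and ecdysone genes long. With the trend removed the medians came to -0.40 for mitochondrial ribosomal proteins, -0.36 for the respiratory chain, -0.34 for glycolysis and 0.24 for ecdysone genes. Before removal, 15 of the 46 axon guidance and adhesion genes were higher (32.6%) and 5 lower (10.9%), against 10.0% and 7.02% of all tested genes (median 0.53). After removal they had 6 higher and 8 lower (median 0.04). The medians of the mushroom body and type II lists were -3.23 and -2.32, and that of the neuroblast identity list 0.58.

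Neighbouring genes on chromosome arm 2R rose together, a pattern looked for after the values were seen. In a window of 100 kb, 13 of 21 tested genes were higher in antennal lobe than in pooled neuroblasts by more than 2 log2 units. Shroom, which encodes an actin-binding protein of epithelial cells, had 573, 696 and 316 CPM in antennal lobe libraries against 4.18, 3.53 and 2.79 CPM in the pool (7.23 ± 0.82, adjusted p = 0.000667). In the same window the capsid-like gene Arc1 was at 159, 198 and 118 CPM against 5.97, 2.65 and 6.30 CPM (5.00 ± 0.57), and Dh44-R1, a neuropeptide receptor gene, rose by 5.86. The odorant-binding protein genes Obp50a, Obp50d and Obp50e, which lie between Arc1 and Dh44-R1, averaged 7.37, 17.7 and 11.9 CPM in antennal lobe libraries and 0.0802, 0.273 and 0.408 CPM in pooled libraries. Tfb1, a general transcription factor gene between Arc1 and Dh44-R1, did not pass, at a mean of 119 CPM against 101 CPM (0.23, adjusted p = 0.37). None of the 13 passed against mushroom body neuroblasts, where Shroom averaged 456 CPM, and 12 of them were higher than in type II neuroblasts, where it averaged 30.7 CPM.

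**Figure D5:**
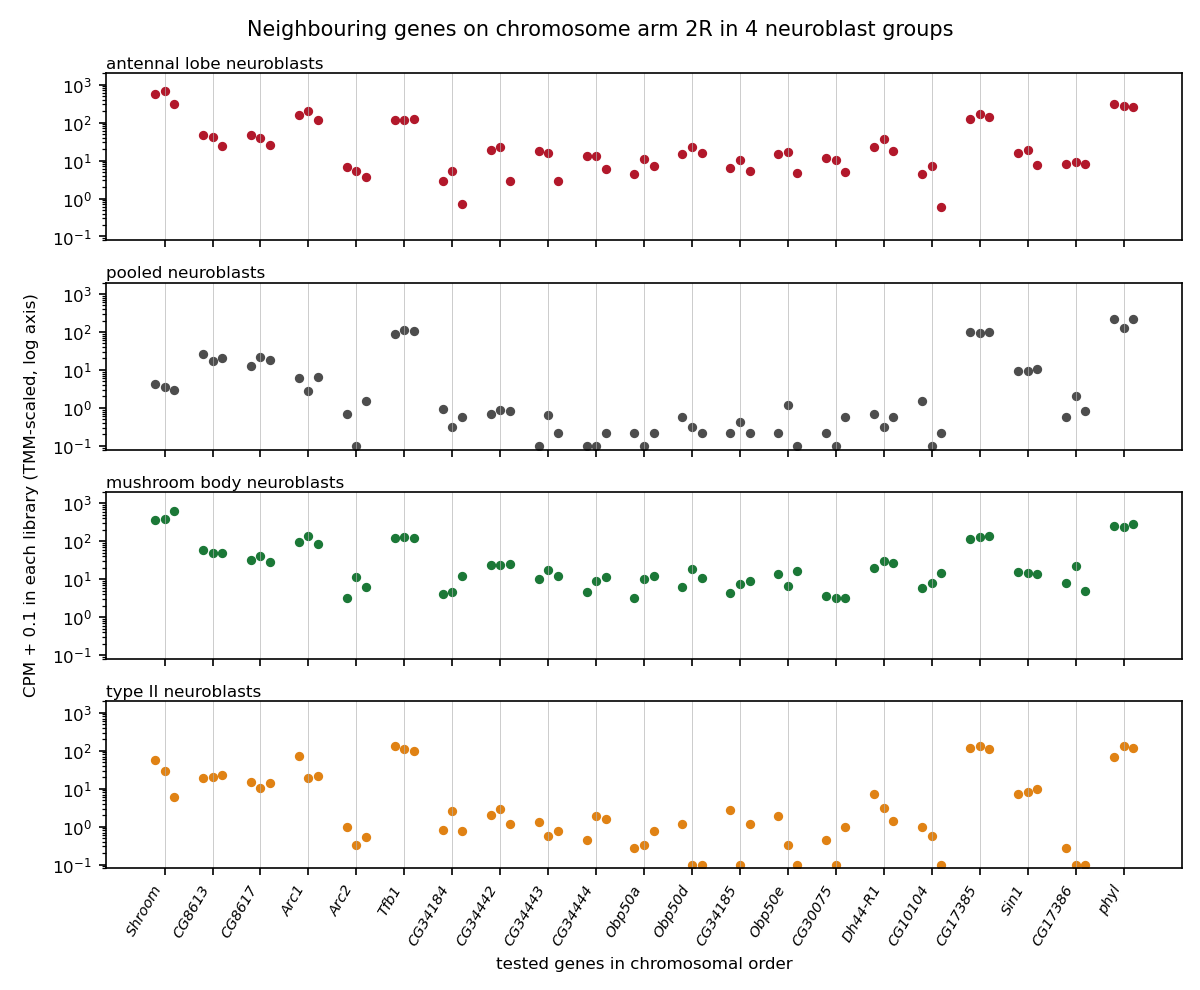
Levels as CPM plus 0.1 on log axes of 21 neighbouring genes of chromosome arm 2R in chromosomal order, one point per library, in 4 neuroblast groups. Shroom, Arc1 and Dh44-R1 stood higher in antennal lobe and mushroom body neuroblasts than in the pool and in type II neuroblasts, while Tfb1 averaged 119 CPM in antennal lobe and 101 CPM in pooled neuroblasts.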

How the data were processed

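RNA-seq reads per gene were deposited as a count table and as a TPM table, made by the authors from reads with HTSeq 0.6.1p1, STAR 2.4.0i, Bowtie2 2.1.0, cutadapt 1.7.1 and CASAVA, with the builds dm3 and mm10, per the submitters' processing notes; read strand is not given. RNA was extracted with a PicoPure kit and amplified with the Ovation RNA-Seq V2 system, per the labels' protocols. ERCC entries, summary entries and an entry with no name (0 to 17 counts in the libraries compared) were left out of library sizes and tests. The deposited counts of 12 libraries in 4 neuroblast groups were fitted with edgeR 4.0.16 (TMM, filterByExpr, robust quasi-likelihood, R 4.3.3), with 8 residual degrees of freedom and a biological coefficient of variation of 0.406, after a check on simulated data. For a gene against both other lineages, both contrasts had to share a sign and the larger p was adjusted. The deposited TPM values were tested with limma 3.58.1 as log2(TPM + 1), which understates changes of low genes. Folds against a group with 0 reads set it at 3 counts over the group, and ratios with 1 to 3 reads have 95% exact intervals; both cover counting error only.

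Genes are named by a rule: the 4 lineage markers, the 15 largest changes each way above 20 CPM without overlap, transcription factors above 5 CPM, and at most 6 called genes per described list; dpn, ase, mira, Syp, chinmo, br, Tfb1, CG42324, CG31619 and the neighbours on 2R were named after their values were seen or as list members that did not pass. Markers, lists and comparisons were chosen with earlier results of these data known. Alternatives were RLE scaling, no filter, DESeq2 1.42.0, the 6 libraries alone, a replicate block, spike-in scaling, TPM values, removal of the span trend and leaving out each library. Replicate numbers did not pair the libraries (correlations of deviations 0.054, -0.052 and -0.015). Spans and positions are those of the authors' annotation columns.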

Additional observations from a re-analysis of the deposited data

How the results depend on the processing

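RLE scaling, the fit without robust estimates and the fit without 3 abundant noncoding genes kept the totals of genes and of list members within 1.5 times, as did the 6 libraries alone for the totals against the pool and of list members. Single lists with few calls moved more: lower Hes and E(spl) genes numbered 0 with RLE scaling and 5 without robust estimates or with the 6 libraries alone, against 1. Scaling to spike-ins per cell left 218 genes higher and 243 lower than the pool, 25 list members higher and 58 lower, and 12 genes higher and 30 lower than both other lineages; this scaling lowers the median gene by 0.28. With TPM values at a pseudocount of 1, list members higher numbered 77 and genes higher than both lineages 49. At 0.1 there were 582 genes higher than the pool, 71 list members higher, and 40 genes higher and 69 lower than both lineages. Without a filter TPM gave 498, 69, 44 and 57 for the same quantities. Genes higher than both lineages numbered 170 with no filter on counts and 133 with DESeq2, against 84, and the cause was not tested. Leaving out 1 library at a time gave 557 to 957 genes higher and 376 to 651 lower than the pool, 79 to 121 list members higher and 78 to 132 lower, 49 to 140 genes higher and 47 to 138 lower than both lineages, and RNA per cell differences of -0.07 to 0.07. A replicate block gave 881 genes higher and 620 lower; the replicate numbers share no source in the labels. Removal of the span trend turned RpL41 to 0.011 (adjusted p = 0.969). Depth limits low genes: a gene with no read in a group of 3 libraries could still have been present below 3 counts.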

Other observations

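Further gene lists held the following counts, against 10.0% higher and 7.02% lower over all tested genes. Of 15 EGF receptor pathway genes 4 were higher and 1 lower in antennal lobe than in pooled neuroblasts, at a median log2 change of 0.37 that was -0.01 with the gene span trend removed. Insulin and TOR genes had 2 of 19 higher, with a median of 0.08 that was -0.18 with spike-in scaling. Heat shock genes had 1 of 16 higher and 4 lower, with lower members numbering 0 without antennal lobe library 1 and 7 without pooled library 2. Among 12 genes of the Hes family and the E(spl) complex 1 rose and 1 fell, and these calls were both lost without any single antennal lobe library, without pooled library 2 or 3 and without mushroom body library 1, while the lower ones numbered 0 to 5 over the alternatives run. Of the 46 homeobox and POU factors tested 7 rose and 10 fell, and of the 3 Hox genes that passed the filter Antp fell, with 3 reads over the antennal lobe libraries, a 63.1-fold difference with a counting interval of 21.3 to 308.

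A stretch of chromosome arm 3R, found in the same search as the run on 2R, held 12 genes higher by more than 2 log2 units among 25 tested in a window of 100 kb. The 12 genes ran from 21107270 to 21170560 in dm3. CHKov1 averaged 24.5 ± 11.0 CPM in antennal lobe and 4.37 ± 0.918 CPM in pooled libraries (SD, n = 3 each; log2 change 2.48, adjusted p = 0.000377). Means of the 12 ran from 1.33 to 24.5 CPM in the antennal lobe group and from 0 to 4.37 CPM in the pool, none of the 12 passed against mushroom body neuroblasts, and the windows with the most lower genes held 3 of 24 and 2 of 2. The eye colour gene w (white), which many fly transgenes carry as a marker, had 260, 337 and 282 CPM in antennal lobe libraries against 32.1, 38.9 and 46.8 CPM in the pool (2.90 ± 0.42, adjusted p = 0.0018), with means of 537 CPM in mushroom body and 660 CPM in type II neuroblasts. The labels name no genotype, and the part of transgenes in any value was not tested.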
